A study of Mus musculus with 27 samples.

Results

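The response of the lung to 15 Gy was compared between C57L/J and C57BL/6J mice, the strains that the study calls radiation sensitive and radiation resistant. The quantity compared was a strain by dose interaction for each gene, the change between 15 and 0 Gy in C57L/J minus the change between 15 and 0 Gy in C57BL/6J, so that a positive value means a higher or less reduced transcript after irradiation in C57L/J. It was taken from 12 of the 27 arrays of the series, 3 female mice in each of 4 groups, with 1 Affymetrix array per mouse and no pooling of animals. The groups were C57L/J lungs after 15 Gy, C57L/J lungs after 0 Gy (sham), C57BL/6J lungs after 15 Gy and C57BL/6J lungs after 0 Gy. All mice were 10 to 12 weeks old when the whole thorax was irradiated with x-rays, and the RNA came from the right upper lobe, taken 24 hours later. Both strains are inbred and carry no engineered allele. The p-values set a difference between group means against the spread between single mice within the groups.

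Ionizing radiation breaks DNA and activates the transcription factor p53, which switches on genes of cell cycle arrest and death, while dividing cells and lymphocytes are lost early. In the irradiated lung, blood vessel endothelium and resident macrophages then signal to circulating neutrophils and monocytes. Immediate early genes encode short-lived transcription factors and phosphatases that are switched on within minutes by growth factors, shear stress or handling of the tissue, and their RNA decays quickly. Clock genes oscillate through the day in the lung as in other organs. Each of these systems can differ between inbred strains.

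The 12 arrays had median intensities from 131.3 to 167.0, and 14.0% to 19.0% of the probe sets stood under an intensity of 32. All values below are log2 intensities or differences between them, since intensities were floored at 1 and taken to log2. Transcripts of lung epithelium were abundant on the 12 arrays, with the surfactant protein gene Sftpc between 14.51 and 14.93 and the club cell gene Scgb1a1 between 14.83 and 15.23. Skeletal muscle transcripts were uneven between arrays. The mean of 10 skeletal muscle genes was 6.32, 5.65 and 13.93 on the 3 arrays of C57L/J at 15 Gy, 6.53, 6.37 and 6.04 at 0 Gy, 6.51, 12.40 and 11.88 in C57BL/6J at 15 Gy, and 6.77, 6.19 and 6.23 at 0 Gy. The 3 high arrays, replicate 3 of C57L/J and replicates 2 and 3 of C57BL/6J, all came from irradiated mice, and all 10 muscle genes had a positive mean change with dose in both strains. The thyroid gene Tg stood at 14.30 and 13.46 on replicate 3 of C57L/J and replicate 2 of C57BL/6J at 15 Gy and at most at 5.63 on the other 10 arrays, and Glycam1, expressed in lymph node venules, stood at 12.38 and 10.52 on the same arrays and at most at 2.73 on the others. All 9 fat cell genes and all 6 squamous epithelium genes had positive mean changes in both strains as well. The part of any of these tissues in the results was not tested beyond leaving arrays out and a fit with the muscle list as a covariate. Many of the results are therefore also given without these 3 arrays, which leaves 2 irradiated C57L/J mice and 1 irradiated C57BL/6J mouse.

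Few genes responded differently in the strains when judged against the number tested. Of 18194 genes, 134 (0.737%) had an interaction at an unadjusted p under 0.01, the study's criterion, 63 of them positive (0.346%) and 71 negative (0.39%), where 181.9 would pass by chance. After Benjamini-Hochberg adjustment by limma 0 genes passed, the lowest adjusted p was 0.276, and 646 genes had an unadjusted p under 0.05. The random variance t test named in the study's methods called 133 genes at the unadjusted limit, 132 of them among the 134, and 0 after adjustment. Each interaction below is therefore described by its values and the unadjusted p of limma, and "rose" and "fell" are used for changes at an unadjusted p under 0.01. Without the 3 arrays with muscle transcripts 246 genes were called, of which 55 were among the 134. Of the 134 genes, 66 reached a mean log2 intensity of 7 in at least 1 group, 40 with a positive and 26 with a negative interaction, and in 51 of these 66 the 2 strains' changes had opposite signs. Over the 12601 genes that reached 7 the 95% interval of an interaction extended by a median of 0.615 to either side. With 3 mice per group, a gene without a called interaction can still differ between the strains.

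**Figure D1:**
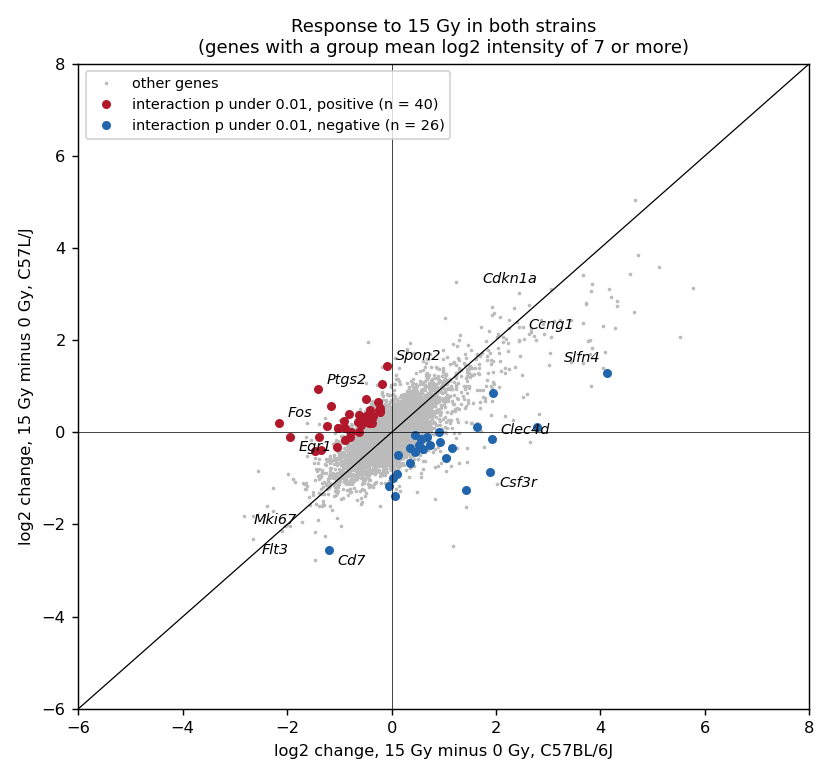
Change in log2 intensity between 15 and 0 Gy in C57L/J (vertical axis) against C57BL/6J (horizontal axis) for the 12601 genes that reached a group mean of 7, with the line of equal change; coloured points are the 40 positive and 26 negative genes at an interaction p under 0.01. Cdkn1a and Ccng1 lie on the line with Flt3 near it, while Fos, Ptgs2 and Egr1 lie above it and Csf3r, Clec4d and Slfn4 below it.

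The main response was common to both strains. In C57L/J 557 genes (3.06%) met the unadjusted limit, with 226 rises (1.24%) and 331 falls (1.82%), and in C57BL/6J 655 genes (3.6%) did, with 237 rises (1.3%) and 418 falls (2.3%). The 202 genes called in both strains made up 36.3% of the C57L/J list and 30.8% of the C57BL/6J list, and 199 of them changed in the same direction. Across the 12601 genes that reached 7, the changes in the strains, which share no arrays, correlated with r = 0.718 (Spearman's rho 0.602), and across all genes with r = 0.422, a description over genes that are not independent of each other. Both irradiated groups held arrays with muscle transcripts, and the skeletal muscle list had median changes of 2.22 in C57L/J and 3.76 in C57BL/6J. The correlation was not computed without these arrays, and their part in it was not tested. Cdkn1a, which encodes the p53-induced inhibitor p21 that halts the cell cycle, had log2 intensities of 13.15, 13.59 and 12.73 at 15 Gy and 10.35, 9.85 and 9.91 at 0 Gy in C57L/J, and of 13.14, 12.78 and 12.94 at 15 Gy and 9.68, 10.26 and 9.73 at 0 Gy in C57BL/6J. The doses did not overlap in either strain, the rise was 3.12 ± 0.25 in C57L/J and 3.06 ± 0.25 in C57BL/6J (SE), and the interaction was 0.06 with a 95% interval of -0.73 to 0.84. The p53 targets Ccng1 and Phlda3 rose by 2.40 and 2.06 in C57L/J and by 2.41 and 2.02 in C57BL/6J, with interactions of -0.01 ± 0.20 and 0.03 ± 0.22. Of 38 p53 targets measured, 16 rose in C57L/J lungs and 18 in C57BL/6J lungs, 0 had a called interaction, and the median interaction was 0.02. In the mean of both strains 134 genes (0.737%) rose and 239 (1.31%) fell at an adjusted p under 0.05, 16 of the p53 targets among those that rose.

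B cell and MHC class II genes fell in both strains, with no called interaction. Of 26 B cell genes 12 fell in each strain, and of 10 genes of MHC class II presentation 7 fell in C57L/J and 8 in C57BL/6J. Of all genes 1.82% fell in C57L/J and 2.3% in C57BL/6J. The lists had median interactions of -0.02 and -0.01, with 0 genes called in either. The mean level of the B cells list at 15 Gy was 7.47, 8.21 and 8.52 in C57L/J and 8.0, 8.76 and 7.98 in C57BL/6J, highest on the arrays with high Glycam1 and Tg, against 8.88 to 9.36 in C57L/J and 9.25 to 9.38 in C57BL/6J at 0 Gy. Without the arrays with muscle transcripts, which include both of these, 15 B cells genes fell in C57L/J lungs and 13 in C57BL/6J lungs, and 5 of the MHC class II presentation genes fell in C57BL/6J. Cd79a, which encodes a subunit of the B cell receptor, fell by 1.95 ± 0.40 in C57L/J and by 1.72 ± 0.40 in C57BL/6J, with an interaction of -0.24 (95% interval -1.51 to 1.04). Itgae, the integrin of lymphocytes and dendritic cells that binds E-cadherin, fell by 2.03 ± 0.42 in each strain. In whole lung RNA, fewer cells of a type and less RNA per cell cannot be told apart.

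Among genes that reached 7, the largest positive interactions included those of immediate early genes, which were lower after 15 Gy in C57BL/6J and showed no called change in C57L/J. Of 23 immediate early genes measured, 6 had a positive interaction at p under 0.01 (Fos, Egr1, Dusp1, Nr4a1, Klf2 and Nr4a2) and 0 a negative one. The shares of all genes were 0.346% and 0.39%. The median interaction of the list was 0.31, against 0.0016 over all genes. The number that fell was 0 of 23 in C57L/J, against 1.82% of all genes, and 8 of 23 in C57BL/6J, against 2.3%. None rose in either. Fos, a subunit of the transcription factor AP-1, had log2 intensities of 11.83, 11.34 and 10.93 at 15 Gy and 11.77, 11.12 and 10.58 at 0 Gy in C57L/J. In C57BL/6J it had 10.13, 9.94 and 9.99 at 15 Gy and 12.48, 11.77 and 12.29 at 0 Gy. The doses overlapped in C57L/J and lay apart in C57BL/6J, where the 3 irradiated lungs were the lowest of the 12. The change was 0.21 ± 0.32 in C57L/J, a fall of 2.16 ± 0.32 in C57BL/6J (4.46-fold, unadjusted p = 5.75e-05), and the interaction 2.37 ± 0.45 (unadjusted p = 0.000421). Egr1, a zinc finger transcription factor, had 12.41, 11.62 and 11.38 at 15 Gy and 12.33, 11.80 and 11.55 at 0 Gy in C57L/J, and 10.19, 11.13 and 11.08 at 15 Gy and 12.72, 12.50 and 13.04 at 0 Gy in C57BL/6J. As for Fos, only the C57BL/6J doses lay apart, and the interaction was 1.86 ± 0.49 (unadjusted p = 0.00341).

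Klf2, a transcription factor that laminar flow induces in endothelium, had overlapping levels in the sham lungs of both strains. Its log2 intensities were 11.92, 12.27 and 11.41 at 15 Gy and 12.27, 11.75 and 11.89 at 0 Gy in C57L/J, and 10.49, 10.40 and 10.16 at 15 Gy and 11.85, 11.76 and 11.62 at 0 Gy in C57BL/6J. The strains did not separate at 0 Gy (C57L/J minus C57BL/6J 0.22, unadjusted p = 0.341), whereas at 15 Gy C57L/J was higher by 1.52 (unadjusted p = 4.76e-05). The interaction of Klf2 was 1.30 ± 0.31 (unadjusted p = 0.00205). In contrast, the orphan nuclear receptor gene Nr4a1 also differed at 0 Gy. It had 10.04, 10.02 and 10.61 at 15 Gy and 10.19, 9.90 and 10.18 at 0 Gy in C57L/J, and 9.42, 10.04 and 9.66 at 15 Gy and 11.22, 10.60 and 11.03 at 0 Gy in C57BL/6J. At 0 Gy C57L/J minus C57BL/6J was -0.86 for Nr4a1 (unadjusted p = 0.00421) and -1.02 for Fos (unadjusted p = 0.00998). It was also negative for Egr1, Dusp1 and Nr4a2, at -0.86, -0.78 and -0.57 (unadjusted p = 0.0314, 0.0349 and 0.0195). Part of each of these interactions therefore lay in the sham-irradiated lungs. Dusp1, the phosphatase that switches off MAP kinases, had 13.27, 13.38 and 12.66 at 15 Gy and 13.29, 12.28 and 12.05 at 0 Gy in C57L/J, against 12.07, 12.07 and 12.31 at 15 Gy and 13.53, 13.00 and 13.42 at 0 Gy in C57BL/6J. Its interaction was 1.73 ± 0.45 (unadjusted p = 0.00332), with a fall of 1.17 ± 0.32 in C57BL/6J.

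The other members of the immediate early genes moved less. Junb and Klf6 fell in C57BL/6J by 0.55 ± 0.13 and by 0.57 ± 0.17, with changes of -0.23 and -0.25 in C57L/J and interactions of 0.32 and 0.31 that were not called. Atf3, a stress-induced transcription factor, changed by 0.28 in C57L/J and 0.06 in C57BL/6J. The 3 irradiated C57BL/6J lungs lay below the 3 sham lungs for 15 of the 23 genes, against 11.9% of all genes, and the 3 irradiated C57L/J lungs for 1 of the 23, against 9.1%. The mean level of the list was 10.24 to 10.42 at 15 Gy and 10.22 to 10.48 at 0 Gy in C57L/J, and 9.99 to 10.03 at 15 Gy and 10.45 to 10.68 at 0 Gy in C57BL/6J. Without the 3 arrays with muscle transcripts 4 immediate early genes had a called interaction, 4 fell in C57BL/6J, the median interaction was 0.33, and Fos, Egr1, Nr4a1 and Klf2 had interactions of 2.47, 2.68, 1.47 and 1.39, while Dusp1 had 2.03 with a p of 0.0126 and Nr4a2 0.59 with a p of 0.117. Nr4a2, the weakest of the 6 (0.98 ± 0.29, unadjusted p = 0.00729), lost its call when any 1 of 8 arrays was left out, all but C57L/J 0 Gy replicate 1, C57L/J 15 Gy replicate 1, C57BL/6J 0 Gy replicate 3 and C57BL/6J 15 Gy replicate 1 (estimates 0.83 to 1.01), and its interaction was -0.34 with the most variable of its 6 probe sets.

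**Figure D2:**
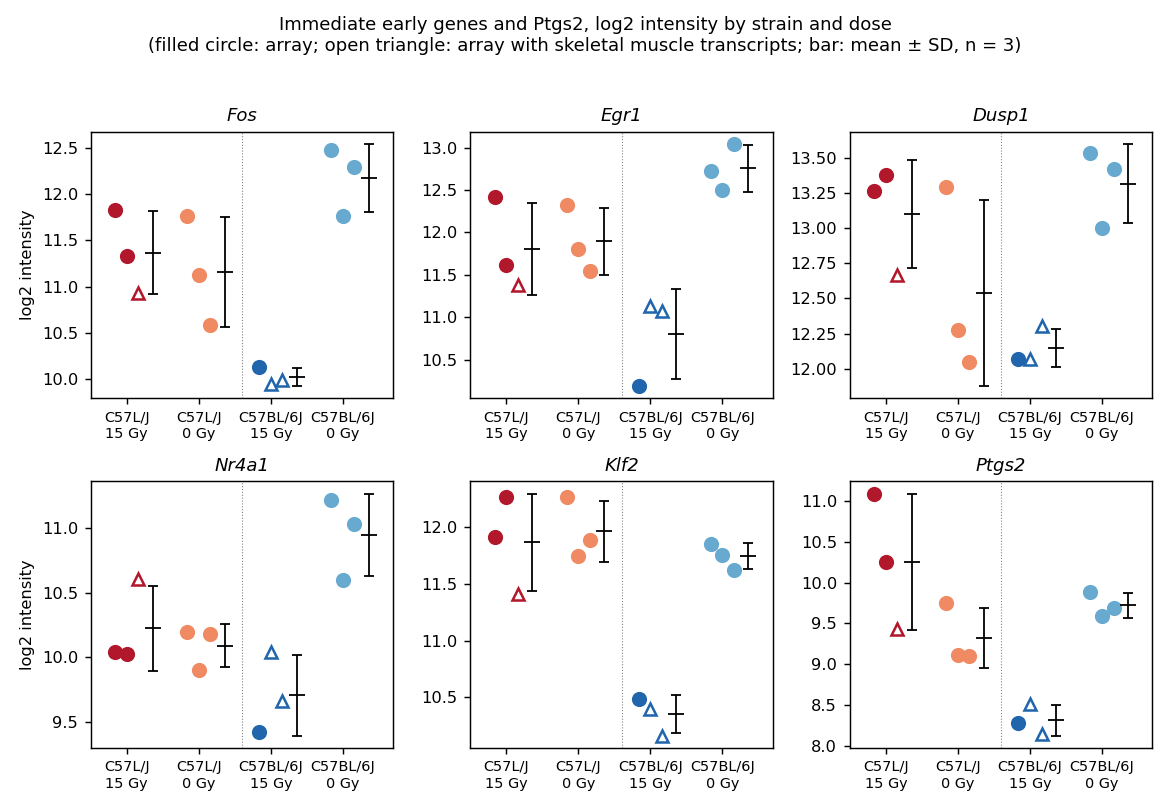
Log2 intensity (vertical axes) of Fos, Egr1, Dusp1, Nr4a1, Klf2 and Ptgs2 on each array, by strain and dose, with the mean ± SD of 3 mice; open triangles are arrays with skeletal muscle transcripts. The 3 irradiated C57BL/6J lungs lie below the 3 C57BL/6J sham lungs in every panel, the muscle-free array included, and the C57L/J doses overlap.

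Many immediate early promoters hold the cyclic AMP response element, whose core TGACG is bound by CREB and related factors. The promoters of Fos (chr12:85473640-85473939, plus strand), Dusp1 (chr17:26508423-26508722, minus strand), Nr4a1 (chr15:101266596-101266895, plus strand) and Ptgs2 (chr1:150099781-150100080, plus strand) are shown as those of the 3 immediate early genes with the largest interactions and a promoter sequence at hand, with the inducible gene Ptgs2 beside them. Each is 250 bases before and 50 bases after the start site (RefSeq, GRCm38.p6), with TGACG or its reverse complement CGTCA in capitals.
Fos: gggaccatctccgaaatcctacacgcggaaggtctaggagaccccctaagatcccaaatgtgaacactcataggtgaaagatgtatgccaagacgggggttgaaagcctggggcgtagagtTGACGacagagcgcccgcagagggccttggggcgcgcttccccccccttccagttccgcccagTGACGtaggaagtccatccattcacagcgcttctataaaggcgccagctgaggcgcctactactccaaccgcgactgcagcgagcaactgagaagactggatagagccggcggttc
Dusp1: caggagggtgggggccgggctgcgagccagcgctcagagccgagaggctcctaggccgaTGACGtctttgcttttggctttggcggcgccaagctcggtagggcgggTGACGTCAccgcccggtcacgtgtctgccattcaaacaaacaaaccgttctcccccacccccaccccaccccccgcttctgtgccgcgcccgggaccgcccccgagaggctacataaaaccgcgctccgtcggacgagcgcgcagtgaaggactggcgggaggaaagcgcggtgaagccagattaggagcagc
Nr4a1: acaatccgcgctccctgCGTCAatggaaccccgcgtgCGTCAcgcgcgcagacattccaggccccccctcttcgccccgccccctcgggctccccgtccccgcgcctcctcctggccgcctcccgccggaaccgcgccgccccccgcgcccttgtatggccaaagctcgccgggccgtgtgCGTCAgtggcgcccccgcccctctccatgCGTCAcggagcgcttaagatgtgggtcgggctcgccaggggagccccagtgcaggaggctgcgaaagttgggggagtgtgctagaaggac
Ptgs2: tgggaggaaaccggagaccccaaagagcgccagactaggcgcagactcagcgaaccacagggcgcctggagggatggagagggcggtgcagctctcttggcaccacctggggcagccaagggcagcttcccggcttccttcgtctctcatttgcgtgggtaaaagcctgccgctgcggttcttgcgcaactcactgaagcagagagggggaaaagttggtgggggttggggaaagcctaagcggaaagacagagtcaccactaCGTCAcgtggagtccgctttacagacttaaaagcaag
With the start site counted as 0, the core began at -129 and -66 in Fos, at -191, -143 and -140 in Dusp1, where the last pair overlaps as TGACGTCA, at -233, -213, -69 and -40 in Nr4a1, and at 13 in Ptgs2. Of the 19 immediate early genes with a promoter sequence 14 held the core on either strand, and so did 5 of the 5 with a called interaction, against 20.8% of 32851 promoters of 300 bases. These matches describe the letters only, and immediate early genes are known to be rich in this element.

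Ptgs2, which encodes the inducible cyclooxygenase COX-2, had a positive interaction as large as that of Fos. Its log2 intensities were 11.09, 10.26 and 9.43 at 15 Gy and 9.75, 9.11 and 9.10 at 0 Gy in C57L/J, and 8.28, 8.51 and 8.14 at 15 Gy and 9.89, 9.59 and 9.69 at 0 Gy in C57BL/6J. The C57L/J doses overlapped by 1 array on each side and the C57BL/6J doses lay apart, with irradiated lungs lower. The change was 0.94 ± 0.36 in C57L/J (unadjusted p = 0.0266) and a fall of 1.41 ± 0.36 in C57BL/6J, and at 15 Gy C57L/J was higher by 1.95 (unadjusted p = 0.000312). The interaction was 2.35 ± 0.51 (unadjusted p = 0.000998) and ranged from 1.79 to 2.80 over the alternative settings, with p at most 0.00316.

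A different pattern, a rise in C57L/J with no called change in C57BL/6J, was seen for Spon2 and Adm. Spon2, which encodes an extracellular matrix protein, had 8.04, 8.73 and 8.33 at 15 Gy and 6.94, 6.96 and 6.85 at 0 Gy in C57L/J, against 7.10, 7.49 and 7.32 at 15 Gy and 7.24, 7.16 and 7.76 at 0 Gy in C57BL/6J. The doses lay apart only in C57L/J, where it rose by 1.45 ± 0.21 (2.73-fold), and the interaction was 1.53 ± 0.30 (unadjusted p = 0.000464). When the 2 probe sets of Spon2 were averaged the interaction was 0.58 (unadjusted p = 0.11). Adm, which encodes the vasodilator peptide adrenomedullin, had 7.73, 8.18 and 8.15 at 15 Gy and 7.11, 7.02 and 6.78 at 0 Gy in C57L/J, against 7.17, 7.39 and 6.93 at 15 Gy and 7.46, 7.52 and 7.07 at 0 Gy in C57BL/6J. It rose by 1.04 ± 0.19 in C57L/J, with an interaction of 1.23 ± 0.27 (unadjusted p = 0.00108; 1.16 and unadjusted p = 0.0122 without the arrays with muscle transcripts). Adm was the only called gene among 22 of the hypoxia response, whose median interaction was -0.03.

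Of the remaining genes among the 12 largest positive interactions, Kin, which encodes a nucleic acid binding protein, and Ece1, the protease that makes endothelin, fell in C57BL/6J by 0.91 ± 0.19 and by 1.03 ± 0.23, with changes of 0.24 and 0.10 in C57L/J. The interaction of Kin was 1.15 ± 0.27 and that of Ece1 1.13 ± 0.32, and both lost the call without the arrays with muscle transcripts (1.03 with unadjusted p = 0.0175 and 1.02 with unadjusted p = 0.0183). That of Ece1 was also lost when any 1 array was left out other than the 3 C57L/J arrays at 15 Gy, C57BL/6J 0 Gy replicate 2 and C57BL/6J 15 Gy replicate 1 (estimates 1.04 to 1.16), and the mean of its 3 probe sets gave 0.48. Zfp583, a zinc finger gene, and Arsi, a sulfatase gene, lay on opposite sides of the sham lungs after irradiation in the strains. Zfp583 had 7.09, 6.81 and 6.68 at 15 Gy and 6.48, 6.47 and 6.42 at 0 Gy in C57L/J, and 6.84, 6.41 and 6.56 at 15 Gy and 7.50, 7.44 and 7.31 at 0 Gy in C57BL/6J. The strains differed at 0 Gy by -0.96 (C57L/J minus C57BL/6J), and the interaction was 1.22 ± 0.21 (unadjusted p = 0.000194).

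Among genes that reached 7, the largest negative interactions included those of myeloid genes, which rose after 15 Gy in C57BL/6J. Of 18 neutrophil genes measured, 3 had a negative interaction at p under 0.01 (Csf3r, Clec4d and Clec4e) and 0 a positive one. The shares of all genes were 0.39% and 0.346%. The median interaction of the list was -0.91. No change of the neutrophils list was called in C57L/J, whereas 7 of the 18 genes rose in C57BL/6J, against 1.3% of all genes. Csf3r, the receptor for the growth factor G-CSF, had log2 intensities of 7.38, 7.89 and 6.95 at 15 Gy and 7.67, 8.80 and 8.35 at 0 Gy in C57L/J, and 10.38, 9.20 and 9.78 at 15 Gy and 8.02, 7.36 and 8.32 at 0 Gy in C57BL/6J. The C57BL/6J doses lay apart, with irradiated lungs the highest of the 12, and the C57L/J doses overlapped. It rose by 1.89 ± 0.40 in C57BL/6J (3.7-fold), changed by -0.87 ± 0.40 in C57L/J (unadjusted p = 0.0574), and had an interaction of -2.76 ± 0.57 (unadjusted p = 0.000729).

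Clec4d and Clec4e encode neighbouring C-type lectin receptors of myeloid cells for microbial glycolipids. Clec4d had 7.02, 7.21 and 7.01 at 15 Gy and 6.71, 7.61 and 7.39 at 0 Gy in C57L/J, and 9.72, 8.33 and 8.61 at 15 Gy and 7.01, 6.65 and 7.23 at 0 Gy in C57BL/6J. Its change was -0.15 ± 0.35 in C57L/J and a rise of 1.92 ± 0.35 in C57BL/6J, and its interaction -2.07 ± 0.50 (unadjusted p = 0.00206). For Clec4e the rise in C57BL/6J was 1.63 ± 0.30 and the interaction -1.50 ± 0.43 (unadjusted p = 0.006). The call of Clec4e was lost when C57L/J 0 Gy replicate 3, C57L/J 15 Gy replicate 2 or 3, C57BL/6J 0 Gy replicate 1 or 2 or C57BL/6J 15 Gy replicate 1 was left out (p from 0.0127 to 0.0164).

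S100a8 and S100a9, the most abundant calcium-binding proteins of mature neutrophils, rose in C57BL/6J by 2.65 ± 0.66 and by 2.85 ± 0.77. S100a9 had 9.91, 11.09 and 9.42 at 15 Gy and 8.46, 11.36 and 10.52 at 0 Gy in C57L/J, against 13.44, 11.89 and 12.53 at 15 Gy and 10.36, 8.78 and 10.17 at 0 Gy in C57BL/6J. The doses overlapped in C57L/J, where the sham lungs alone spanned 8.46 to 11.36, and lay apart in C57BL/6J. The interaction of S100a9 was -2.82 ± 1.09 (unadjusted p = 0.0273; -3.65 and unadjusted p = 0.00279 without C57L/J 0 Gy replicate 1). It was not called in 25 of 28 alternative settings, with estimates from -3.65 to -2.20. Without the arrays with muscle transcripts it was -3.28. For S100a8 the interaction was -2.86 ± 0.94 (unadjusted p = 0.0124), a gene named after its values were seen, as were the other neutrophils genes in this paragraph. Mmp8, the neutrophil collagenase, and Lcn2, an iron-trapping protein of neutrophils and airway epithelium, rose in C57BL/6J by 1.72 ± 0.42 and by 1.20 ± 0.30. The granule genes that neutrophil precursors express in the marrow gave smaller values. Mpo, Elane and Ngp changed by 0.09, -0.61 and 0.16 in C57L/J, and by 0.16, -0.12 and -0.08 in C57BL/6J.

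The irradiated C57BL/6J lungs lay above the sham lungs for 10 of the 18 neutrophils genes, against 8.9% of all genes. The irradiated C57L/J lungs did so for 2 of the 18, against 7.6%. The mean level of the list was 7.21 to 7.97 at 15 Gy and 7.26 to 7.85 at 0 Gy in C57L/J, and 8.40 to 8.89 at 15 Gy and 7.09 to 7.87 at 0 Gy in C57BL/6J. Without the 3 arrays with muscle transcripts the median interaction of the neutrophils list was -1.59, 3 genes had a called interaction, Csf3r and Clec4d among them but not Clec4e (-1.73, unadjusted p = 0.0192), and 8 rose in C57BL/6J. The number that rose in C57BL/6J was 4 without C57BL/6J 0 Gy replicate 2, and the number with a called interaction 7 without C57L/J 0 Gy replicate 1.

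**Figure D3:**
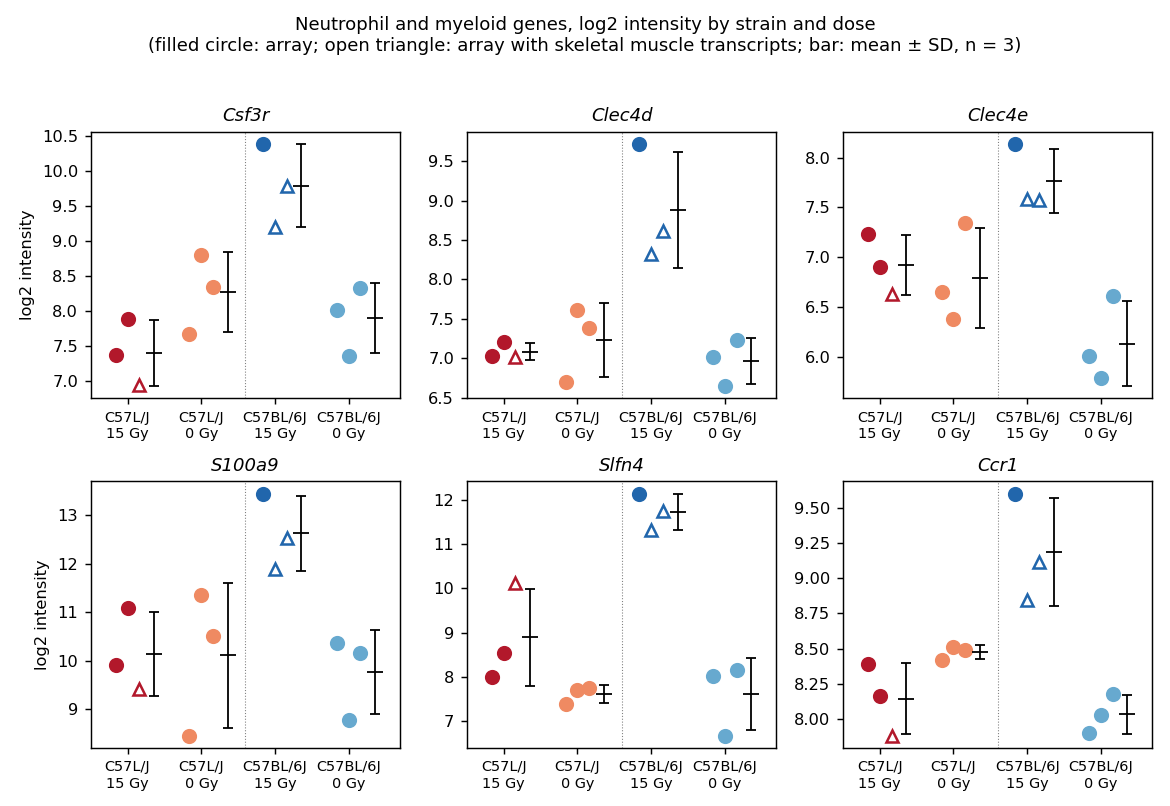
Log2 intensity (vertical axes) of Csf3r, Clec4d, Clec4e, S100a9, Slfn4 and Ccr1 on each array, by strain and dose, with the mean ± SD of 3 mice; open triangles are arrays with skeletal muscle transcripts. The irradiated C57BL/6J lungs lie above the C57BL/6J sham lungs in all 6 panels, while the C57L/J doses overlap except for Slfn4 (higher at 15 Gy) and Ccr1 (lower at 15 Gy).

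Genes of myeloid cells commonly carry the core GAGGAA of the lineage factor PU.1 near their start site. The promoters of Csf3r (chr4:126024409-126024708, plus strand) and Clec4d (chr6:123261857-123262156, plus strand) are shown as the neutrophil genes with the largest called interactions, with GAGGAA or its reverse complement TTCCTC in capitals (RefSeq, GRCm38.p6).
Csf3r: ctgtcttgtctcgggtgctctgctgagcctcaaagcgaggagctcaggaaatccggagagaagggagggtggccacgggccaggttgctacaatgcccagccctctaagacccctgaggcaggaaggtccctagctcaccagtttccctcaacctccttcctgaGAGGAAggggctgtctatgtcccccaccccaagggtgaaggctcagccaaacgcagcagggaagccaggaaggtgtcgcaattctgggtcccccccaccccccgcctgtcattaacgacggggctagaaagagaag
Clec4d: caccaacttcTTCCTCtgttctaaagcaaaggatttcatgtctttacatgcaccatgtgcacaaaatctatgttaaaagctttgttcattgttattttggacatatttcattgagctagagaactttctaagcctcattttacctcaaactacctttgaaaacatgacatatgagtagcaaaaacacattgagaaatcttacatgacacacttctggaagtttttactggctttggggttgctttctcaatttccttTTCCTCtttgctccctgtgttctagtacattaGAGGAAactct
The core began at -86 in Csf3r and at -240, 7 and 39 in Clec4d. Of the 17 neutrophils genes with a promoter sequence 13 held it, against 28.3% of the 32851 promoters, and all 3 with a called interaction did.

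Other myeloid genes had negative interactions as well. Slfn4, a Schlafen gene of monocytes and neutrophils, rose by 4.13 ± 0.54 in C57BL/6J (17.5-fold) and changed by 1.28 ± 0.54 in C57L/J (2.43-fold, unadjusted p = 0.0404). It had 8.0, 8.54 and 10.13 at 15 Gy and 7.38, 7.70 and 7.75 at 0 Gy in C57L/J, and 12.14, 11.33 and 11.75 at 15 Gy and 8.02, 6.67 and 8.15 at 0 Gy in C57BL/6J. The doses lay apart in both strains, and C57L/J replicate 3 at 15 Gy, 1 of the arrays with muscle transcripts, was the highest of its strain. The mean level of 35 interferon-stimulated genes at 15 Gy was 8.88, 9.32 and 10.70 in C57L/J, also highest on this array. In C57BL/6J it was 9.58 to 9.69, and its bearing on Slfn4 was not tested. The interaction of Slfn4 was -2.85 ± 0.77 (unadjusted p = 0.00417), -3.87 without the arrays with muscle transcripts, and its p was 0.0103 to 0.0116 when C57L/J 0 Gy replicate 3, C57L/J 15 Gy replicate 2 or C57BL/6J 15 Gy replicate 1 was left out.

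The chemokine receptor gene Ccr1 had 8.39, 8.16 and 7.88 at 15 Gy and 8.42, 8.51 and 8.49 at 0 Gy in C57L/J, and 9.60, 8.84 and 9.11 at 15 Gy and 7.90, 8.03 and 8.17 at 0 Gy in C57BL/6J. Every irradiated lung lay below the sham lungs in C57L/J and above them in C57BL/6J, and the interaction was -1.48 ± 0.28 (unadjusted p = 0.000397). Wfdc21 and Wfdc17 encode small secreted proteins of the whey acidic protein family. Wfdc21 changed by -0.57 ± 0.28 in C57L/J and rose by 1.05 ± 0.28 in C57BL/6J, an interaction of -1.62 ± 0.40. Wfdc17 rose in both strains, by 0.85 ± 0.18 in C57L/J and by 1.94 ± 0.18 in C57BL/6J, an interaction of -1.09 ± 0.25 (unadjusted p = 0.00156), whose p was 0.0563 when all 27 arrays shared the estimate of spread. Padi4, the enzyme that citrullinates histones in neutrophils, rose in C57BL/6J by 0.93 ± 0.24, with a change of -0.20 in C57L/J. Its interaction of -1.13 was lost when any 1 of 9 arrays was left out, all but C57L/J 15 Gy replicate 1, C57BL/6J 0 Gy replicate 1 and C57BL/6J 15 Gy replicate 2 (estimates -1.20 to -0.92).

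Another pattern was a fall in C57L/J that C57BL/6J did not share or shared in part. Aass, the first enzyme of lysine breakdown, had 10.15, 10.13 and 9.92 at 15 Gy and 11.07, 11.10 and 11.04 at 0 Gy in C57L/J, and 8.43, 8.16 and 8.56 at 15 Gy and 8.31, 8.22 and 8.52 at 0 Gy in C57BL/6J. It was higher in C57L/J at both doses, by 2.72 at 0 Gy, fell by 1.0 ± 0.14 in C57L/J, changed by 0.03 ± 0.14 in C57BL/6J and had an interaction of -1.03 ± 0.20 (unadjusted p = 0.00041). Osgin1, a growth inhibitor gene induced by oxidative stress, fell by 1.15 ± 0.17 in C57L/J and changed by -0.04 ± 0.17 in C57BL/6J. Its interaction was -1.11 ± 0.25 (unadjusted p = 0.00122), and -1.0 with unadjusted p = 0.0226 without the arrays with muscle transcripts. Lingo1, known as a brake on axon growth in the nervous system, fell by 1.39 ± 0.28 in C57L/J and changed by 0.07 ± 0.28 in C57BL/6J. Its interaction of -1.46 ± 0.40 (unadjusted p = 0.00478) lost its call when C57L/J 0 Gy replicate 2 or 3, C57BL/6J 0 Gy replicate 2 or C57BL/6J 15 Gy replicate 2 was left out. Lingo1 was not called in 8 of 28 alternative settings, with estimates from -1.65 to -0.90. Without the arrays with muscle transcripts its interaction was -1.55. Cd7, a surface protein of T and NK cells, fell in both strains, by 2.56 ± 0.21 in C57L/J and by 1.20 ± 0.21 in C57BL/6J. Its levels were 4.22, 4.80 and 4.69 at 15 Gy and 7.31, 6.92 and 7.16 at 0 Gy in C57L/J, and 6.66, 6.59 and 6.04 at 15 Gy and 7.69, 7.58 and 7.64 at 0 Gy in C57BL/6J. The interaction was -1.35 ± 0.29 (unadjusted p = 0.000928), but p was 0.119 when all 27 arrays shared the estimate of spread. The irradiated C57L/J levels of Cd7 lay under an intensity of 32, where signal is low, and with intensities floored at 32 the interaction was -0.93 (unadjusted p = 0.0024).

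Of 17 genes of NK cells and cytotoxic granules, 8 fell in C57L/J, against 1.82% of all genes. The NK receptor gene Klra8, at low intensity, was the 1 that rose there, against 1.24%. In C57BL/6J 2 of the 17 fell, against 2.3% of all genes. The number with a called interaction was 0, and the median interaction was -0.14. The median C57L/J minus C57BL/6J difference of the list was -0.44 at 0 Gy and -0.68 at 15 Gy. The number that fell in C57BL/6J was 0 without its 15 Gy replicate 2 or its 0 Gy replicate 2, 1 without any other of its sham arrays or any C57L/J sham array, 5 without C57L/J 15 Gy replicate 1, 4 without C57BL/6J 15 Gy replicate 3 and 3 without C57L/J 15 Gy replicate 3. Klrd1, the CD94 receptor subunit, fell by 1.33 ± 0.21 in C57L/J and changed by -0.50 ± 0.21 in C57BL/6J, with an interaction of -0.83 ± 0.30 (unadjusted p = 0.0196). The NK receptor gene Klre1 fell by 1.12 ± 0.17 in C57L/J and changed by -0.44 ± 0.17 in C57BL/6J, with an interaction of -0.67 ± 0.23 (unadjusted p = 0.0168).

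Clock genes changed in C57L/J lungs and had no called change in C57BL/6J lungs. Of 20 circadian clock genes, 8 met the limit in C57L/J (7 falls and 1 rise) and 0 in C57BL/6J, against 3.06% and 3.6% of all genes. Called interactions were fewer, 1 negative (Bhlhe40) and 1 positive (Npas2), against 0.39% and 0.346% of all genes. The median interaction of the list was -0.49. Bhlhe40, a repressor of the clock that is also induced by several stresses, had 10.51, 10.04 and 10.77 at 15 Gy and 11.37, 11.38 and 11.29 at 0 Gy in C57L/J, and 11.25, 11.06 and 11.12 at 15 Gy and 11.06, 11.19 and 10.88 at 0 Gy in C57BL/6J. The doses lay apart only in C57L/J, where it fell by 0.91 ± 0.18, and the interaction was -1.01 ± 0.25 (unadjusted p = 0.00261). Npas2, which pairs with Bmal1 (Arntl) to drive the clock, had 6.14, 7.34 and 7.14 at 15 Gy and 5.24, 5.39 and 4.52 at 0 Gy in C57L/J, against 6.42, 6.60 and 6.51 at 15 Gy and 6.71, 6.44 and 5.96 at 0 Gy in C57BL/6J. It rose by 1.82 ± 0.34 in C57L/J. Its interaction of 1.69 ± 0.48 (unadjusted p = 0.00567) was 1.64 without the arrays with muscle transcripts and lost its call when any 1 of 8 arrays was left out, all but C57L/J 0 Gy replicates 1 and 2, C57L/J 15 Gy replicate 1 and C57BL/6J 0 Gy replicate 3 (estimates 1.42 to 1.73). Over 27 alternative settings the estimate of Npas2 ran from 0.43 to 2.05, and 12 of them did not call it. Its group means all stayed below 7. C57L/J minus C57BL/6J was -1.32 at 0 Gy (unadjusted p = 0.00308) and 0.37 at 15 Gy (unadjusted p = 0.303), so part of this interaction lay in the sham lungs.

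The circadian clock genes that fell in C57L/J included several others, none of which had a called interaction. Dbp, a transcription factor that follows the clock closely, had 10.91, 9.89 and 11.39 at 15 Gy and 11.91, 12.13 and 12.29 at 0 Gy in C57L/J, and 11.62, 11.34 and 11.90 at 15 Gy and 12.17, 12.11 and 12.09 at 0 Gy in C57BL/6J. It fell by 1.38 ± 0.32 in C57L/J and changed by -0.51 ± 0.32 in C57BL/6J, and the irradiated lungs lay below the sham lungs in both strains. The interaction of Dbp was -0.87 ± 0.45 (unadjusted p = 0.0847), and the related factors Tef and Hlf fell by 0.87 ± 0.15 and by 1.12 ± 0.25 in C57L/J, changed by -0.42 and -0.77 in C57BL/6J, and had interactions of -0.45 ± 0.21 and -0.36 ± 0.36. Ciart, a repressor of the clock, fell by 1.19 ± 0.25 in C57L/J and changed by -0.35 ± 0.25 in C57BL/6J, with an interaction of -0.84 ± 0.36 (unadjusted p = 0.0418). The REV-ERB genes Nr1d1 and Nr1d2, which repress Bmal1, fell by 0.69 ± 0.20 and by 0.70 ± 0.15 in C57L/J. Bmal1 itself, listed as Arntl, changed by 1.02 ± 0.36 in C57L/J (unadjusted p = 0.0193) and 0.50 ± 0.36 in C57BL/6J. Genes outside the naming rule were named here after their values were seen.

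The mean level of the circadian clock list was 9.38 to 9.46 at 15 Gy and 9.61 to 9.95 at 0 Gy in C57L/J, which do not overlap, and 9.68 to 9.83 at 15 Gy and 9.57 to 9.86 at 0 Gy in C57BL/6J, which do. Irradiated lungs lay below sham lungs for 10 of the 20 genes in C57L/J, against 9.1% of all genes, and for 4 in C57BL/6J, against 11.9%. Without the 3 arrays with muscle transcripts 5 circadian clock genes fell and 1 rose in C57L/J, 2 had a negative interaction (Bhlhe40 and Ciart) and 0 a positive one. The methods state that the animals were killed on the same day, and the time of killing of each group was not given in the sources used here.

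**Figure D4:**
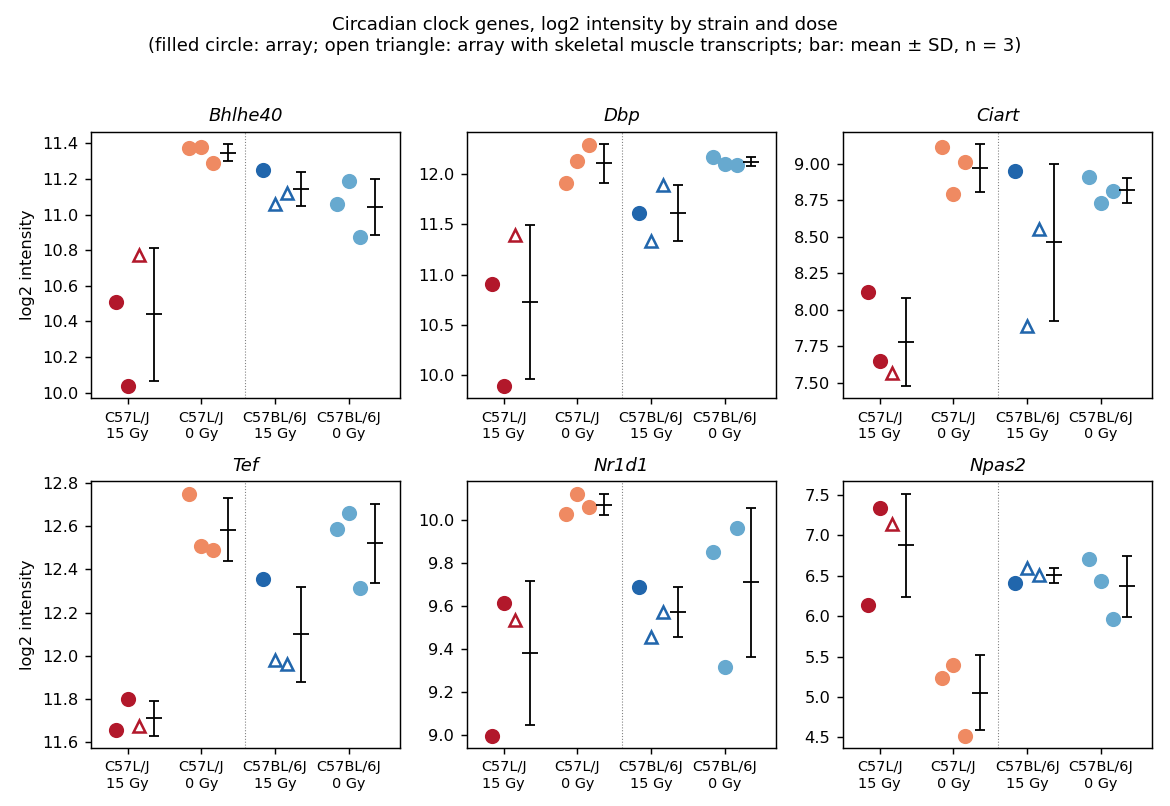
Log2 intensity (vertical axes) of the clock genes Bhlhe40, Dbp, Ciart, Tef, Nr1d1 and Npas2 on each array, by strain and dose, with the mean ± SD of 3 mice; open triangles are arrays with skeletal muscle transcripts. In C57L/J the irradiated lungs lie below the sham lungs for the first 5 genes and above them for Npas2, and in C57BL/6J the doses overlap except for Dbp.

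The median mitosis gene was lower in C57L/J than in C57BL/6J sham lungs and differed little between the strains after 15 Gy. Of 44 mitosis genes 15 fell in C57BL/6J and 7 in C57L/J, against 2.3% and 1.82% of all genes. For 37 of the 44 the interaction was positive, with a list median of 0.38. Positive calls numbered 2 (Ccnb2 and Cdc20), against 0.346% of all genes. Ccnb2, a mitotic cyclin, had 6.85, 6.75 and 6.74 at 15 Gy and 7.17, 7.11 and 7.04 at 0 Gy in C57L/J, and 6.63, 6.60 and 6.84 at 15 Gy and 7.62, 7.75 and 7.82 at 0 Gy in C57BL/6J. The irradiated lungs of the strains overlapped and the sham lungs did not. The C57L/J minus C57BL/6J difference was -0.62 at 0 Gy (unadjusted p = 0.000291) and 0.09 at 15 Gy, and the interaction 0.71 ± 0.16 (unadjusted p = 0.0013). Over the whole list the median difference between strains was -0.40 at 0 Gy and 0.04 at 15 Gy. Cdc20, the activator of the anaphase complex, had an interaction of 0.96 ± 0.23 (unadjusted p = 0.00195), 0.87 with unadjusted p = 0.024 without the arrays with muscle transcripts, and -0.20 with the most variable of its 3 probe sets. Without those arrays the median interaction of the mitosis list was 0.11, 1 gene was called, and 14 fell in C57L/J and 13 in C57BL/6J. The mean level of the list at 15 Gy was 5.94, 5.99 and 6.55 in C57L/J, the highest on replicate 3 with muscle transcripts, and 6.23, 6.02 and 6.08 in C57BL/6J. The C57L/J count was 11 without its 15 Gy replicate 3, 2 without its 15 Gy replicate 1, and 4 without its 15 Gy replicate 2 or any 1 of its sham arrays.

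Gata3, the regulator of type 2 helper T cells and innate lymphoid cells, was the only called gene among 18 regulators of T helper and regulatory T cells. It had 7.87, 8.32 and 8.53 at 15 Gy and 8.48, 8.71 and 8.75 at 0 Gy in C57L/J, and 6.69, 7.50 and 7.39 at 15 Gy and 8.51, 8.75 and 8.69 at 0 Gy in C57BL/6J. The fall was 1.46 ± 0.23 in C57BL/6J and the change -0.41 ± 0.23 in C57L/J, and the interaction of 1.05 ± 0.33 (unadjusted p = 0.00993) lost its call when any 1 array other than C57L/J 15 Gy replicate 1 and C57BL/6J 15 Gy replicate 2 was left out (estimates 0.80 to 1.15).

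The genes that the study names for dose and strain were set beside these. The study picked Retnla, Auts2 and Gria1 for changes within the lethal dose range of each strain, absent from the sublethal range of C57BL/6J. It lists Specc1, Zfp319 and Cyp26b1 for dose-dependent changes in C57BL/6J only. The changes below compare the highest dose with sham lungs and leave out the intermediate dose, so that choice was not tested. The highest dose counts as lethal in both strains, so similar changes of Retnla there do not contradict the choice. Retnla, which encodes resistin-like molecule alpha, had 13.75, 13.28 and 12.89 at 15 Gy and 12.11, 12.37 and 11.77 at 0 Gy in C57L/J, and 14.16, 13.76 and 13.64 at 15 Gy and 12.49, 13.04 and 12.40 at 0 Gy in C57BL/6J. It rose by 1.23 ± 0.27 in C57L/J and by 1.21 ± 0.27 in C57BL/6J, and the interaction at 15 Gy was 0.02 with a 95% interval of -0.83 to 0.86. Auts2, a neuronal chromatin regulator gene, changed by -0.39 ± 0.15 in C57L/J and -0.43 ± 0.15 in C57BL/6J, an interaction of 0.04 ± 0.21. The glutamate receptor gene Gria1 changed by -0.17 ± 0.38 in C57L/J lungs and -0.47 ± 0.38 in C57BL/6J lungs, an interaction of 0.30 ± 0.53. Specc1, which encodes a cytoskeletal protein, fell by 0.71 ± 0.22 in C57L/J and changed by -0.59 ± 0.22 in C57BL/6J. Cyp26b1, which degrades retinoic acid, changed by 0.51 ± 0.73 in C57L/J and -0.40 ± 0.73 in C57BL/6J, with C57L/J sham lungs at 6.97, 10.00 and 8.62. Zfp319, a zinc finger gene, had a called interaction of 1.12 ± 0.33 (unadjusted p = 0.00738), from a change of 0.09 in C57L/J and a fall of 1.03 ± 0.24 in C57BL/6J. It was not called when any 1 of 8 arrays was left out, all but C57L/J 0 Gy replicate 1, C57L/J 15 Gy replicate 3 and C57BL/6J 0 and 15 Gy replicates 3 (estimates 0.96 to 1.13), and the mean of its 4 probe sets gave -0.064.

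**Figure D5:**
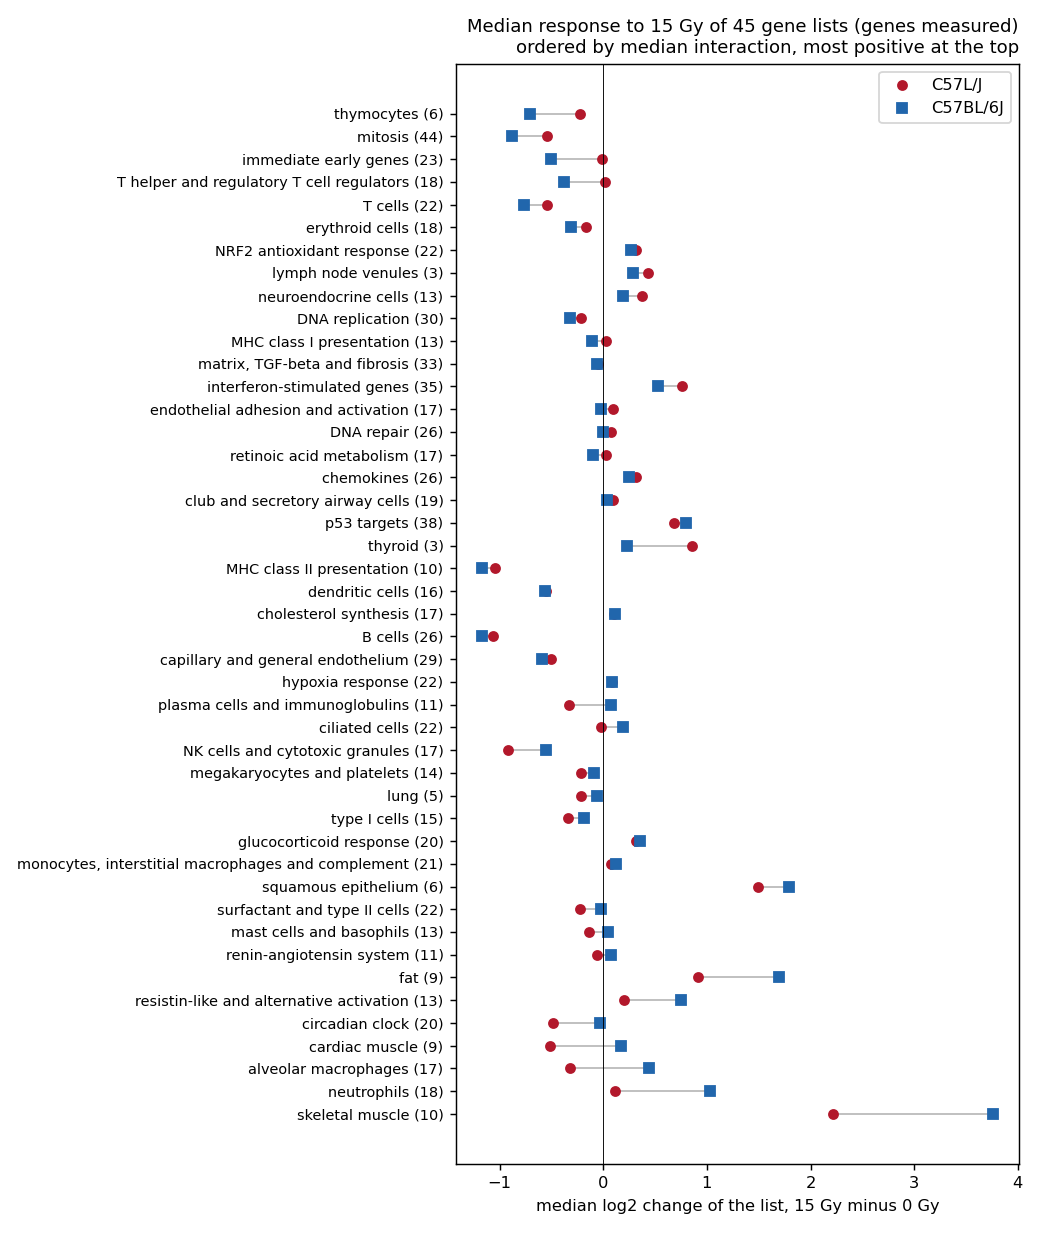
Median change in log2 intensity between 15 and 0 Gy (horizontal axis) in C57L/J (red circles) and C57BL/6J (blue squares) for 45 gene lists, with the number of genes measured, ordered by the median interaction. The markers lie together for p53 targets, B cells and MHC class II presentation and apart for immediate early genes, the circadian clock, neutrophils and skeletal muscle, the last carried by 3 arrays.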

How the data were processed

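Lung RNA of female mice had been hybridised by the authors to 27 Affymetrix Mouse Genome 430 2.0 arrays, of which the 12 of C57L/J and C57BL/6J at 15 and 0 Gy were compared here. The authors deposited linear intensities of 45101 probe sets, which the submitters' processing notes credit to Expression Console 1.1. The algorithm that summarised the probes was not given in the sources used here. Every array had a trimmed mean of 500.002, a scaling already in the deposited values, and none was added. The study's methods describe quartile-normalized data, while the lower quartiles of the 12 arrays ran from 43.7 to 59.3. Pairs of arrays correlated with r from 0.894 to 0.950 and 0 pairs were identical. The number of arrays limits the precision, and the smallest p of an exact permutation test with 3 mice per group is 0.1.

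Intensities were floored at 1 and log2-transformed. Of the probe sets 34958 had 1 gene symbol (34754 matched to a current one), 932 had several and 9211 had none. The brightest probe set over 18 arrays of both strains stood for each of 18194 genes, of which 9012 had several. The 4 groups shared 1 estimate of spread in limma 3.58.1 (R 4.3.3; lmFit, contrasts.fit, eBayes). Errors are limma's standard errors unless named, and unadjusted p-values stand beside Benjamini-Hochberg adjustment over all genes. The code was tested on simulated data. Tables and figures were made with Python 3.11, pandas 2.3.3, numpy 2.4.6 and matplotlib 3.10.9.

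The genes named were the 12 largest positive and 12 largest negative interactions at an unadjusted p under 0.01 with a group mean of 7 or more, up to 3 members of each of 45 gene lists by interaction p and 2 by mean response, the 8 largest rises and 8 largest falls common to the strains, and 7 genes the study names, passing over names that end in Rik or begin with Gm. Other genes were named after their values were seen. The members and lists were chosen with earlier results of these data known. Alternatives were the random variance t test, fits over 18 or 27 arrays, an intensity trend, array weights, quantile normalization, median-centring, a floor of 32, a filter on low values, other choices of probe set, the replicate number as a block, the muscle list as a covariate, leaving out the 3 arrays whose muscle list lay over 2 log2 units above the median, and each array left out in turn. Promoter sequences came from RefSeq (GRCm38.p6).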

Additional observations from a re-analysis of the deposited data

Results flagged for a closer look

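For Ccr1, Wfdc21, Arsi and Zfp583 every irradiated lung lay on opposite sides of its strain's sham lungs in C57L/J and C57BL/6J, with an interaction at an unadjusted p under 0.01. The interactions, C57L/J minus C57BL/6J, were -1.48 for Ccr1, -1.62 for Wfdc21, 1.20 for Arsi and 1.22 for Zfp583. Wfdc21 had 8.94, 8.51 and 8.43 at 15 Gy and 9.49, 9.11 and 8.98 at 0 Gy in C57L/J, and 10.41, 9.52 and 9.34 at 15 Gy and 8.49, 8.69 and 8.94 at 0 Gy in C57BL/6J. Arsi had 7.56, 7.15 and 7.69 at 15 Gy and 6.48, 6.71 and 7.07 at 0 Gy in C57L/J, and 6.92, 7.0 and 6.74 at 15 Gy and 7.66, 7.21 and 7.25 at 0 Gy in C57BL/6J, and its interaction was 1.06 with a p of 0.0308 without the arrays with muscle transcripts. Among all genes 50 had this arrangement, 32 of them among the 134 called interactions, 13 higher after 15 Gy in C57L/J and 19 higher in C57BL/6J. These genes were picked for the arrangement among those already called, so it is a description of them.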

How the results depend on the processing

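The interaction count of 134 was 211 with array weights, 86 with the filter on low values, 273 over probe sets in place of genes, 246 without the arrays with muscle transcripts and 265 with the muscle list as a covariate (55 and 119 of these were among the 134). It was 123 to 223 with each array left out in turn, the highest without C57L/J 15 Gy replicate 3, and 0 at an adjusted p under 0.05 under every setting run (lowest 0.0561, with a floor of 32). The split of 63 positive and 71 negative calls was 76 and 59 after quantile normalization, 51 and 35 with the filter and 90 and 70 in the fit over all 27 arrays. For C57L/J the count of 557 was 900 over 27 arrays, 864 over probe sets and 379 to 725 with each array left out. For C57BL/6J the count of 655 was 1099 over 27 arrays, 1040 with array weights, 1016 over probe sets, and 417 (without C57BL/6J 0 Gy replicate 2) to 1036 (without C57L/J 15 Gy replicate 3). The labels state no pairing of mice by replicate number. Deviations of equally numbered arrays within a strain correlated between -0.066 and 0.015. Between the strains at 15 Gy they correlated with 0.239, -0.241 and 0.114 for replicates 1, 2 and 3. With 3 mice per group these values describe the arrays and cannot exclude a pairing. With the replicate block the interaction count was 138 over the 12 arrays and the C57BL/6J count 430 when blocked within each strain. Some estimates changed sign. With the most variable probe set the interactions were -0.34 for Nr4a2, -0.20 for Cdc20 and -1.44 for Zfp319 (-0.064 with the mean of its probe sets), and the mean response of Auts2 was 0.22. The mean response of Gria1 was 0.10 with the muscle covariate, and that of Cyp26b1, 0.054 in all, ran between -0.34 and 0.42 with each array left out (negative without C57L/J 0 Gy replicate 1, C57L/J 15 Gy replicate 2, C57BL/6J 0 Gy replicate 3 or C57BL/6J 15 Gy replicate 2). The cause was not tested. Of the 24 genes with the largest interactions, 9 were called under every setting run (Fos, Ptgs2, Egr1, Klf2, Zfp583, Csf3r, Clec4d, Wfdc21 and Aass), 19 with each array left out in turn and 16 without the arrays with muscle transcripts. Of the 134 genes, 68 stayed below a log2 intensity of 7 in every group, where the signal over background limits what can be read.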

Other observations

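The same genes can be read at 12.5 Gy, with the sham arrays shared between the doses. Skeletal muscle transcripts were also high in C57BL/6J at 12.5 Gy (replicates 1 and 2) and in CBA/J at 0 Gy (replicates 1 and 2) and 12.5 Gy (replicates 2 and 3), and on none of the C57L/J arrays at 12.5 Gy. At 12.5 Gy Fos, Egr1, Nr4a1 and Klf2 changed by -0.82, -0.78, -0.68 and -0.59 in C57L/J lungs, and by -1.95, -1.86, -1.51 and -0.97 in C57BL/6J lungs, so that at this dose these genes had negative changes in C57L/J too. The mean level of the immediate early genes in C57L/J was 9.99 to 10.19 at 12.5 Gy and 10.24 to 10.42 at 15 Gy, against 10.22 to 10.48 in sham lungs. Csf3r and Clec4d changed at 12.5 Gy by 0.43 and 0.90 in C57L/J lungs, and by 1.93 and 1.93 in C57BL/6J lungs. The neutrophils list had mean levels of 8.04 to 8.16 in C57L/J lungs and 8.27 to 8.81 in C57BL/6J lungs at 12.5 Gy, above the sham lungs of each strain. Among clock genes Bhlhe40, Dbp and Npas2 changed by -0.85, -1.76 and 1.56 in C57L/J lungs, and by -0.09, -0.77 and 0.00 in C57BL/6J lungs. The circadian clock list in CBA/J lungs, from another inbred strain, had mean levels of 9.61 to 9.73 at 0 Gy, 9.62 to 9.85 at 12.5 Gy and 9.41 to 9.53 at 15 Gy.

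Alveolar macrophages genes had no called interaction among 17, but 15 of the 17 estimates were negative, with a median of -0.84. Mrc1, the mannose receptor, changed by -0.33 ± 0.28 in C57L/J lungs and 0.75 ± 0.28 in C57BL/6J, and Ctsk, a cathepsin, by -0.32 ± 0.38 in C57L/J and 0.90 ± 0.38 in C57BL/6J. Without the arrays with muscle transcripts 5 alveolar macrophages genes had a negative called interaction, Ctsk at -2.24 among them, with 1 irradiated C57BL/6J mouse left, whose Ctsk level of 11.05 stood above the 9.52 and 9.29 of its group.

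Plasma cell genes varied widely between mice. Ighm, the heavy chain of IgM, had 11.32, 10.15 and 12.41 at 15 Gy and 13.11, 13.79 and 11.80 at 0 Gy in C57L/J, and 12.57, 13.45 and 11.98 at 15 Gy and 10.94, 12.59 and 10.23 at 0 Gy in C57BL/6J. Its interaction was -3.03 ± 1.09 (unadjusted p = 0.0199), and that of Jchain, which joins IgM and IgA subunits, -3.14 ± 1.16 (unadjusted p = 0.0224), both with overlapping doses in each strain.

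The largest interactions in size were at the floor of the arrays. Ms4a19 had 0.05, 0.00 and 0.00 at 15 Gy and 3.90, 2.95 and 1.97 at 0 Gy in C57L/J, and 2.97, 3.78 and 3.79 at 15 Gy and 1.53, 0.04 and 1.64 at 0 Gy in C57BL/6J, an interaction of -5.37 ± 0.74 (unadjusted p = 3.03e-05) at intensities too low to be told from background. This gene was chosen after its values were seen.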
